A study of Mus musculus with 16 samples.

Results

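Ventral brain was compared with dorsal brain in control mice, with no tumour tissue in the processing or in the fit. The groups were 3 arrays of tissue labelled ventral brain control and 5 arrays of tissue labelled dorsal brain control, which are 8 of the 16 arrays of the series. They come from a study of high grade glioma in a mouse model in which tumour suppressor genes were knocked out. Control tissue was taken from control mice at the anatomical regions where tumours arose. Controls are numbered as biological replicates, and a region is called dorsal or ventral and nothing finer. Strain, age, sex, alleles, any treatment of the control mice and the dissection itself are not given in the sources used here. Total RNA from flash frozen tissue was hybridised to Illumina bead arrays, in which a probe's brightness rises with the abundance of its transcript. Values are log2 signals after background correction and quantile normalization, a difference is ventral minus dorsal, and errors are limma standard errors unless called SD.

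The dorsal forebrain holds the cerebral cortex and hippocampus, whose principal neurons release glutamate and arise from progenitors marked by pallial transcription factors. The ventral forebrain holds the hypothalamus, where small groups of neurons make peptides that act on the pituitary, on feeding and on sleep, and which is built under its own set of homeobox factors. The striatum lies between these levels, and its inhibitory projection neurons carry dopamine receptors and several peptides of their own. In bulk tissue a lower signal can come from fewer cells of a type or from less RNA per cell, and these cannot be told apart here.

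The 3 ventral arrays resembled each other, and the 5 dorsal arrays did not form 1 even group. Across genes, ventral arrays correlated pairwise at r = 0.985 to 0.990 and dorsal arrays at 0.934 to 0.990, against 0.907 to 0.936 between regions. Dorsal controls 1, 2 and 3 correlated with each other at 0.983 to 0.990, dorsal control 4 with these at 0.967 to 0.969, and dorsal control 5 at 0.934 to 0.940. In a principal component analysis the leading component (57.8% of the variance) separated the regions, and the next (24.1%) placed dorsal controls 4 and 5 at 18.9 and 50.9, with the other dorsal arrays between -23.5 and -17.7 and the ventral arrays between -3.99 and -0.78. Detected probes numbered 17565 to 19245 of 45281 on an array, with 19057 ± 178 (SD, n = 3) in ventral and 18365 ± 559 (SD, n = 5) in dorsal tissue (two-sided exact permutation p = 0.0893, smallest possible 0.0179).

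Striatal markers set dorsal controls 4 and 5 apart. The level of 24 measured genes of striatal projection neurons, taken per array as the average of its members after subtracting each member's midpoint between the group means, was 2.26 and 3.14 on these arrays. It lay between -0.66 and -0.60 on dorsal controls 1 to 3 and between -0.80 and -0.60 on the ventral arrays. Drd1, which encodes the D1 dopamine receptor, read 5.71, 5.64 and 5.77 on dorsal controls 1 to 3, 10.19 and 10.98 on dorsal controls 4 and 5, and 5.72, 5.77 and 4.96 on the ventral arrays. The Ppp1r1b gene of DARPP-32, a phosphatase inhibitor of the same neurons, read 10.24, 9.26, 9.94, 12.96 and 13.81 on the dorsal arrays and 7.90, 8.40 and 7.82 on the ventral arrays. The Ppp1r1b call was lost without dorsal control 1 or 4 or any ventral array, with adjusted p from 0.051 to 0.13. Its difference was -1.78 without dorsal controls 4 and 5. For some of the lists and genes on which these 2 arrays stood apart, values are given without them too. This alternative was chosen with earlier results of these data known.

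Of 10520 genes tested, 2791 passed at a limma adjusted p under 0.05, which is 26.5%. Of these, 1612 (15.3%) were higher and 1179 (11.2%) were lower in ventral tissue, and the median difference over all genes was 0.02. A difference of at least 2-fold was reached by 512 of the higher (4.87%) and 458 of the lower genes (4.35%). All 3 ventral arrays lay above all 5 dorsal arrays for 2002 genes (19%) and below them for 1492 genes (14.2%). Without dorsal controls 4 and 5, 4030 genes passed, 2222 higher (21.1%) and 1808 lower (17.2%), and 2672 of the 2791 were among them. The names of the 8 arrays begin with 3 different numbers, which were read here as 3 chips. The labels name no chip or batch. With chip as a block 1625 genes passed, 939 higher (8.93%) and 686 lower (6.52%), of which 1537 were among the 2791. Chip 2 held dorsal controls 2, 3 and 4 and no ventral array. In that fit these arrays add nothing to the difference, so its dorsal side rests on dorsal controls 1 and 5. Within chip 1, which held dorsal control 1 and ventral control 1, 100% of the 2791 differed in the same direction as over all arrays, and within chip 3, with dorsal control 5 and ventral controls 2 and 3, 99.5% did. These arrays took part in choosing the 2791, so both shares are descriptions.

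Several large differences lay outside the gene lists. Gpx3, a secreted glutathione peroxidase, read 5.27, 5.47, 5.33, 6.68 and 5.36 on the dorsal arrays and 11.12, 10.74 and 10.83 on the ventral arrays (5.27 ± 0.31, limma adjusted p = 9.64e-06). The regions were far apart, and dorsal control 4 was the highest dorsal array. Tsr3 differed by 5.26 ± 0.25, but another probe of the same gene gave -1.81, so its direction depends on the probe. Epop differed by -4.25 ± 0.50 and Igfbp6, which encodes a binding protein of insulin-like growth factors, by -3.97 ± 0.55. Dorsal control 5 was the lowest dorsal array for Epop, at 9.07, and for Igfbp6, at 7.12, and both values lay above every ventral array.

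Hypothalamic peptide genes gave the largest differences. Of 40 listed peptides of hypothalamus and brainstem, 21 were measured, of which 14 were higher in ventral tissue and 0 were lower. The shares over all genes were 15.3% and 11.2%. The median difference was 2.34 against 0.02 over all genes. Pmch, which encodes melanin-concentrating hormone of the lateral hypothalamus, read 4.51, 4.94, 4.48, 4.81 and 4.67 on the dorsal arrays and 13.38, 14.04 and 14.02 on the ventral arrays. It was detected on 2 of 5 dorsal arrays, and its difference of 9.13 ± 0.18 was the largest of all genes tested (limma adjusted p = 1.97e-08). The probe with the highest mean gave this value, and Pmch differed by 6.33 as the mean of its probes and by 3.54 on its least favourable probe. Hcrt, the gene of the wake-promoting orexins, was not detected on any dorsal array (4.31 to 4.43) and read 11.42, 12.50 and 12.64 on the ventral arrays, at least 162-fold higher (limma adjusted p = 2.23e-07). Gal, the galanin gene, was also undetected on all 5 dorsal arrays (4.26 to 4.40) and read 10.70, 9.29 and 11.21 on the ventral arrays, at least 46.9-fold higher (limma adjusted p = 9.64e-06). No dorsal array approached a ventral array for these 3 genes, dorsal controls 4 and 5 included.

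The neurohypophysial hormone genes were high on 2 of the 3 ventral arrays. Oxt, which encodes oxytocin, read 12.88 and 13.14 on ventral controls 1 and 3 and 5.52 on ventral control 2, against 4.84 to 5.15 on the dorsal arrays. Avp, which encodes vasopressin, was likewise lowest on ventral control 2, with 11.66 and 11.19 on ventral controls 1 and 3 and 5.30 on ventral control 2. It was undetected on the dorsal arrays (4.25 to 4.59). The ventral array that was high for Pmch and Hcrt was thus close to the dorsal level for Oxt and Avp. Oxt differed by 5.53 ± 1.5 (limma adjusted p = 0.0252), and the call was lost without ventral control 1 (adjusted p = 0.11) and without ventral control 3 (adjusted p = 0.113). Avp was at least 23.2-fold higher as a group mean (limma adjusted p = 0.0166), with adjusted p = 0.0748 without ventral control 1 and 0.0809 without ventral control 3. With chip as a block the adjusted p was 0.107 for Oxt and 0.0684 for Avp.

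The promoter windows of these 4 peptide genes are shown because Oxt and Avp were both low on ventral control 2 while Pmch and Hcrt were not. Each runs from 250 bases before to 50 bases after the transcription start in RefSeq on build GRCm38.p6, 5′ to 3′ on the gene's strand. Oxt (chr2:130575919-130576218, plus strand) and Avp (chr2:130582539-130582838, minus strand) are close neighbours on chromosome 2 and are read towards each other. Pmch lies at chr10:88090822-88091121 (plus strand) and Hcrt at chr11:100762882-100763181 (minus strand). Capitals mark every match on either strand to TGACC, the repeated element of hormone response sites, and to TATAAA.
Oxt: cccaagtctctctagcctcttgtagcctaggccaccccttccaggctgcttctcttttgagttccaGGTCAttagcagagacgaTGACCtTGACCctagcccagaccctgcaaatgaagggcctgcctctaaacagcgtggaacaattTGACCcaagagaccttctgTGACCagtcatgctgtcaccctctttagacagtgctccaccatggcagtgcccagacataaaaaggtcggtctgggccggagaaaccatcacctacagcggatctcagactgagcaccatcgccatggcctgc
Avp: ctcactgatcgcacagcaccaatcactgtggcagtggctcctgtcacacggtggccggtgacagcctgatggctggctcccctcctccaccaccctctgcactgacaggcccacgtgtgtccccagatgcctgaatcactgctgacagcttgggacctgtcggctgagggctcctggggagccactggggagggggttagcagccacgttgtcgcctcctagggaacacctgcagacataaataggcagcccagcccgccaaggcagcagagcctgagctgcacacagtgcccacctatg
Pmch: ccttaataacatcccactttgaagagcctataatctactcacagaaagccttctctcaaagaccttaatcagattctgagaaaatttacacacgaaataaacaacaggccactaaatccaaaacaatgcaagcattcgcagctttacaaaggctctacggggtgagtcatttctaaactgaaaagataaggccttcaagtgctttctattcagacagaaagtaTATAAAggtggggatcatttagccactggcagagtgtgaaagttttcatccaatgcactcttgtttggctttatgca
Hcrt: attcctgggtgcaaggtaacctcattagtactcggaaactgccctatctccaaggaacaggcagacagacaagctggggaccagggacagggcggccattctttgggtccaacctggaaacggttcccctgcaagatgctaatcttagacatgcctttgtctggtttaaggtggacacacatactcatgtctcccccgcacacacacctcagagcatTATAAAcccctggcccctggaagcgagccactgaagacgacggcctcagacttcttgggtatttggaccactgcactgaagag
TGACC was found 5 times in the Oxt window and 0 times in the other windows, and 40.5% of 32851 promoter windows of this length hold at least 1 match. TATAAA was found once each in Pmch and Hcrt, against 13.6% of all windows. No match of one motif overlapped a match of the other. A match describes letters in the window and does not show that a factor binds there.

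Some other hypothalamic peptides were also lowest on ventral control 2 among the ventral arrays, to a lesser degree than Oxt and Avp. Trh, the gene of thyrotropin-releasing hormone, read 10.86, 8.60 and 11.34 on the ventral arrays against 4.37, 4.70, 4.63, 5.71 and 6.35 on the dorsal arrays (5.12 ± 0.66, limma adjusted p = 0.000633). Ghrh, which drives growth hormone release, was undetected on every dorsal array and read 8.44, 6.22 and 8.13 on the ventral arrays, at least 6.72-fold higher (limma adjusted p = 0.000742). Ventral control 2 was the lowest ventral array for both genes and still lay above every dorsal array. Cartpt, a feeding-related peptide, read 11.61, 10.79 and 11.80 on the ventral arrays and ranged from 5.06 to 8.71 on the dorsal arrays (4.48 ± 0.73, limma adjusted p = 0.00228).

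The remaining peptide genes were more even between ventral arrays, except Nmu. Npvf, which encodes RFamide-related peptides of the dorsomedial hypothalamus, read 6.69, 6.63 and 7.26 on the ventral arrays and was undetected on the dorsal arrays, at least 4.02-fold higher (limma adjusted p = 9.64e-06). Nts, the neurotensin gene, read 6.87, 6.71 and 6.65 there and was undetected on the dorsal arrays, at least 3.71-fold higher (limma adjusted p = 1.07e-05). Tac2, the neurokinin B gene, read 7.52, 7.63 and 7.46 against 4.37 to 6.20 on the dorsal arrays (2.34 ± 0.37, limma adjusted p = 0.00182). Ventral and dorsal arrays did not overlap for any of these genes. Nmu, the neuromedin U gene, was at least 1.31-fold higher and read 5.75, 5.13 and 4.85 on the ventral arrays. Its value on ventral control 3 lay near the lowest detected signal of that array (4.79). The granule protein Scg2 (1.92 ± 0.24) and the synuclein Sncg (4.08 ± 0.22) were also higher. Of the 14 peptide calls, all but Oxt and Avp held on leaving out any single array. The list count without dorsal controls 4 and 5 was 15 higher and 2 lower, against 21.1% and 17.2% of all genes. Without dorsal control 5 alone 14 were higher and 2 lower. Least favourable probes gave 0.58 for Tac2 and 0.63 for Sncg, and both passed.

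**Figure D1:**
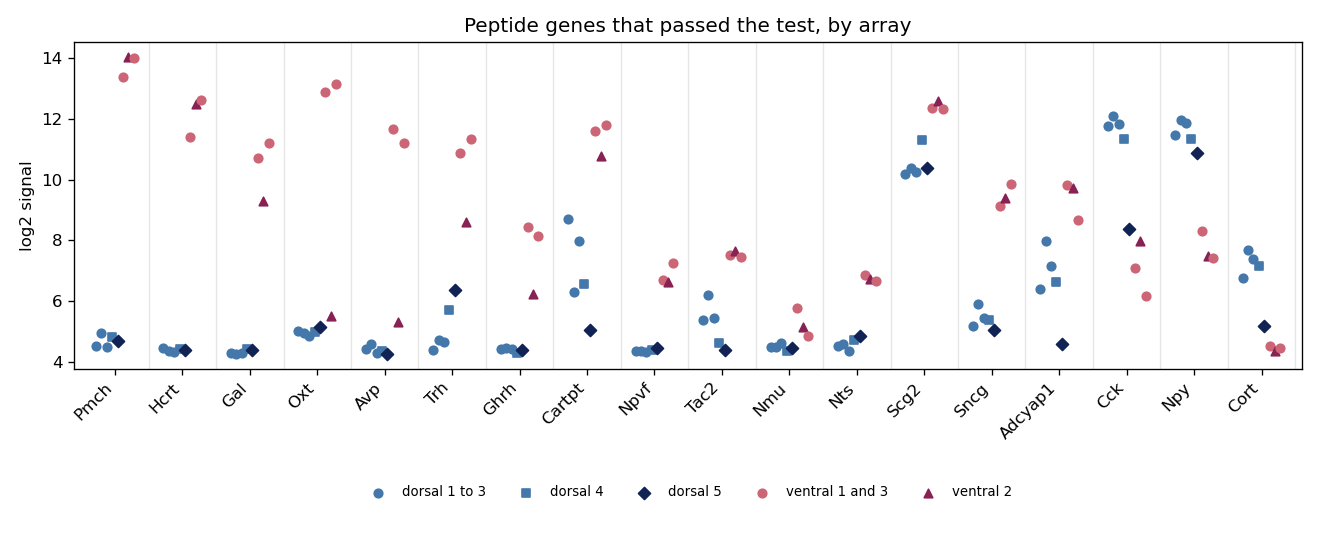
Log2 signal of 18 peptide genes that passed the test, 1 point per array, with dorsal arrays in blue and ventral arrays in red. The 3 ventral arrays sit at 13.38 to 14.04 for Pmch while ventral control 2, drawn as a triangle, falls to 5.52 for Oxt and 5.30 for Avp.

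Of 14 measured of 17 listed forebrain peptides, 3 were higher and 3 lower, with a median of 0.45, close to the 15.3% and 11.2% of all genes. Npy, the neuropeptide Y gene of cortical interneurons, read 11.48, 11.96, 11.86, 11.34 and 10.89 on the dorsal arrays and 8.29, 7.47 and 7.41 on the ventral arrays, a difference of -3.79 ± 0.28 (limma adjusted p = 3.57e-05). Cck, the cholecystokinin gene that is abundant in cortical pyramidal cells, read 11.78, 12.10, 11.84, 11.32 and 8.36 on the dorsal arrays and 7.07, 7.97 and 6.15 on the ventral arrays (-4.02 ± 0.83, limma adjusted p = 0.00722). Dorsal control 5 stood near the highest ventral array for Cck and well below the other dorsal arrays. With chip as a block the Cck difference was -2.76 with an adjusted p of 0.069. Cort, the cortistatin gene, was undetected on the ventral arrays and differed by -2.39 ± 0.50 (limma adjusted p = 0.00741).

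On the higher side, Cbln1, a synapse organiser secreted by glutamatergic neurons, differed by 4.97 ± 0.65, and Nxph1, a neurexin ligand of inhibitory neurons, by 0.80 ± 0.16. Adcyap1, the gene of the peptide PACAP, read 6.39, 7.97, 7.15, 6.62 and 4.58 on the dorsal arrays and 9.83, 9.72 and 8.67 on the ventral arrays (2.87 ± 0.66, limma adjusted p = 0.0121). The regions did not overlap for Adcyap1, but its call was lost without ventral control 1 (adjusted p = 0.0563) and without ventral control 2 (adjusted p = 0.0507). Among interneuron peptides that did not pass, Sst, the somatostatin gene, differed by -0.53 ± 0.20 (limma adjusted p = 0.0882) and Vip by -1.99 ± 1.18 (limma adjusted p = 0.254). Vip ranged from 4.49 to 9.45 within the dorsal arrays, with dorsal control 5 the lowest.

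Transcription factors of the hypothalamus were higher in ventral tissue. Of 27 listed, 12 were measured, of which 9 were higher and 0 lower, against 15.3% and 11.2% of all genes. The median was 1.12 against 0.02 over all genes. Lhx1, a LIM homeobox factor of the suprachiasmatic region and mammillary region, was undetected on the dorsal arrays (4.24 to 4.33) and read 6.99, 7.85 and 7.35 on the ventral arrays, at least 5.84-fold higher (limma adjusted p = 6.3e-06). Lhx5, its close relative, was likewise undetected on the dorsal arrays and read 6.89, 6.64 and 7.12 on the ventral arrays, at least 4.10-fold higher (limma adjusted p = 2.23e-06). The highest dorsal value was 4.33 for Lhx1 and 4.25 for Lhx5, far under every ventral array.

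The Nkx2 factors, which pattern the ventral neural tube, passed as a group of 3. Nkx2-1, required for hypothalamic development, read 4.63, 4.73, 4.78, 5.25 and 5.65 on the dorsal arrays and 6.76, 6.32 and 5.88 on the ventral arrays (1.31 ± 0.27, limma adjusted p = 0.00783). The gap between dorsal control 5 and ventral control 3 was small for this gene, and with chip as a block its adjusted p was 0.09. Nkx2-2 differed by 1.69 ± 0.26 (limma adjusted p = 0.00173), and Nkx2-4, undetected on the dorsal arrays, was at least 2.61-fold higher (limma adjusted p = 2.24e-05). Foxb1, a marker of the mammillary bodies, was at least 1.69-fold higher, Uncx at least 1.75-fold and Lhx9 at least 1.06-fold. Sox14 differed by 0.92 ± 0.23 (limma adjusted p = 0.018), and its call was lost without ventral control 1 (adjusted p = 0.0708) or ventral control 2 (adjusted p = 0.0726).

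Thalamic and pretectal factors were higher as well. Of 18 listed, 9 were measured, 6 were higher and 0 lower, against 15.3% and 11.2% of all genes. The median was 1.55. Lhx9 and Sox14 are among these 6 and were also counted among the hypothalamic factors. Tcf7l2, a Wnt effector that marks thalamic neurons, read 5.94, 6.21, 5.79, 6.13 and 6.19 on the dorsal arrays and 7.53, 9.21 and 7.63 on the ventral arrays (2.07 ± 0.35, limma adjusted p = 0.00265). Irx3, an Iroquois factor of the caudal diencephalon, read 7.42, 8.10 and 6.46 on the ventral arrays against 4.57 to 4.94 on the dorsal arrays (2.64 ± 0.31, limma adjusted p = 0.000363). Ventral control 2, the lowest ventral array for Oxt, Avp and Trh, was the highest for Tcf7l2 and Irx3. It was the lowest ventral array for Zic1 (7.07), and Sox14 was highest on ventral control 1 (6.19). Irx2, undetected on the dorsal arrays, was at least 3.01-fold higher, and Zic1 differed by 1.55 ± 0.25 (limma adjusted p = 0.00224). The level of the whole list was 0.59, 1.04 and 0.26 on ventral controls 1, 2 and 3, and -0.74 to -0.47 on the dorsal arrays. That of the hypothalamic factor list was 0.68, 0.70 and 0.63 on these ventral arrays, also highest on ventral control 2.

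Of 33 listed factors of midbrain and hindbrain, 9 were measured, with 3 higher and 1 lower, against 15.3% and 11.2% of all genes. Ebf3, a helix-loop-helix factor of differentiating neurons, read 4.82, 4.75, 4.98, 5.10 and 5.02 on the dorsal arrays and 9.47, 10.40 and 9.84 on the ventral arrays (4.97 ± 0.20, limma adjusted p = 1.22e-06), the largest difference of any listed transcription factor, and its least favourable probe gave 1.44. Its paralogue Ebf2 and the Iroquois factor Irx5 were undetected on the dorsal arrays and were at least 1.63-fold and 1.73-fold higher. Pou3f1, a POU factor of cortical projection neurons and glia, differed by -2.56 ± 0.43 (limma adjusted p = 0.00256). Of 27 listed Hox genes, which mark hindbrain and spinal cord, 3 were measured and 0 passed, with differences of -0.14 to 0.16.

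**Figure D2:**
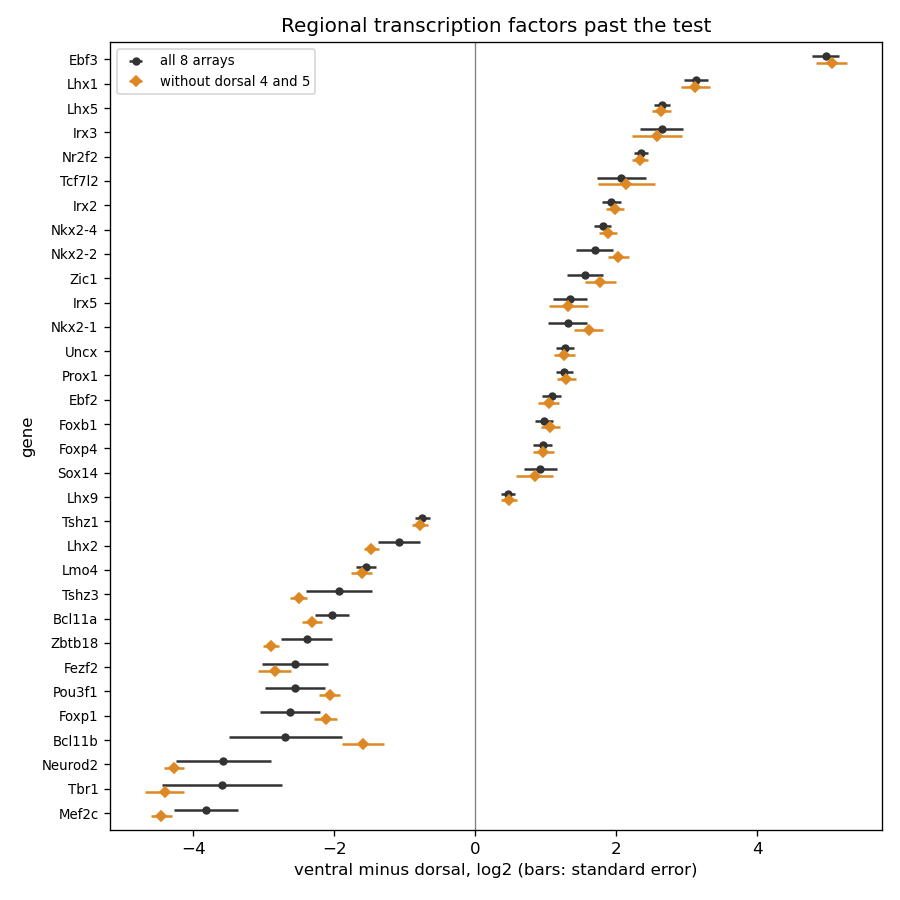
Ventral minus dorsal differences in log2 for the listed regional transcription factors that passed, with standard errors, over all 8 arrays in black and without dorsal controls 4 and 5 in orange. Genes undetected in 1 region, such as Lhx1 and Lhx5, are drawn at their fitted values, which are not bounds; Ebf3 lies at 4.97 and Mef2c at -3.82.

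Of 30 listed pallial transcription factors, 20 were measured, with 2 higher and 10 lower, against 15.3% and 11.2% of all genes. The other 8 did not pass the threshold, and the median was -1.29. With chip as a block 6 were lower, and Tbr1, Bcl11b, Lhx2 and Tshz3 lost their calls. Tbr1, a T-box factor of glutamatergic cortical neurons, read 9.34, 9.37, 9.56, 9.16 and 5.61 on the dorsal arrays and 5.07, 4.38 and 5.61 on the ventral arrays (-3.59 ± 0.86, limma adjusted p = 0.0143). Neurod2, a helix-loop-helix factor of the same neurons, read 9.15, 9.52, 9.20, 8.86 and 6.21 against 4.82, 5.07 and 5.17 (-3.57 ± 0.67, limma adjusted p = 0.00464). Dorsal controls 1 to 4 were high for both, while dorsal control 5 was at the level of ventral control 3 for Tbr1 and closer to the ventral than to the other dorsal arrays for Neurod2. Without dorsal controls 4 and 5 the differences were -4.40 for Tbr1 and -4.27 for Neurod2. The Tbr1 call was lost without ventral control 1 (adjusted p = 0.0514) and without ventral control 2 (adjusted p = 0.0614).

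Mef2c, an activity-responsive factor of cortical neurons, read 12.42, 12.57, 12.32, 11.04 and 10.65 on the dorsal arrays and 8.28, 7.79 and 7.89 on the ventral arrays (-3.82 ± 0.45, limma adjusted p = 0.000399). Fezf2, which specifies deep-layer projection neurons, differed by -2.55 ± 0.47, Zbtb18 by -2.39 ± 0.36, Bcl11a by -2.03 ± 0.24 and Lmo4 by -1.55 ± 0.14. No ventral array reached a dorsal array for these 5 genes. Bcl11b, which is shared by deep-layer cortical and striatal neurons, was highest on dorsal controls 4 and 5 at 11.48 and 12.65, against 9.27 to 9.37 on the other dorsal arrays and 6.95 to 8.17 on the ventral arrays. Its difference of -2.69 ± 0.80 (limma adjusted p = 0.0368) became -1.59 without these 2 arrays (adjusted p = 0.00339) and lost its call without dorsal control 4 (adjusted p = 0.0718) or without ventral control 1, 2 or 3 (adjusted p = 0.0803, 0.0827 and 0.145).

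Tshz3 differed by -1.93 ± 0.47 (limma adjusted p = 0.0156) and lost its call without ventral control 1 (adjusted p = 0.0653) or 3 (adjusted p = 0.0536). Lhx2, a selector of cortical identity that is undetected on the ventral arrays, was lower by a factor of at least 1.56 (limma adjusted p = 0.0292) and lost its call on leaving out any single array except dorsal control 4 or 5, with adjusted p from 0.0569 to 0.0921. The 2 listed pallial factors that were higher are Nr2f2 and Prox1. Nr2f2, a nuclear receptor that also marks ventral forebrain territories, was undetected on the dorsal arrays and read 6.90, 6.72 and 6.68 on the ventral arrays, at least 3.78-fold higher (limma adjusted p = 1.57e-06). Prox1, which marks hippocampal granule cells and also diencephalic neurons, differed by 1.26 ± 0.12 (limma adjusted p = 0.000136).

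Several pallial factors separated dorsal controls 1 to 3 from 4 and 5 and did not pass over all arrays. Emx1, the pallial selector, read 6.23, 6.12 and 6.10 on dorsal controls 1 to 3, 4.61 and 4.37 on dorsal controls 4 and 5, and 4.28 to 4.33 on the ventral arrays, where it was undetected (limma adjusted p = 0.0901). Satb1 read 11.64 to 11.84 on dorsal controls 1 to 3, 10.57 and 9.42 on 4 and 5, and 9.44 to 9.96 on the ventral arrays (limma adjusted p = 0.0867). Cux2, an upper-layer factor, read 8.23 to 8.46, then 6.48 and 5.45, and 6.08 to 6.99 on the ventral arrays (limma adjusted p = 0.355). Without dorsal controls 4 and 5 the differences were -1.84 for Emx1, -2.04 for Satb1 and -1.90 for Cux2. In that fit 14 pallial factors were lower, against 17.2% of all genes. Leaving out ventral control 1 brought the count of lower pallial factors from 10 to 6.

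Subpallial factors mark striatum and other ventral telencephalon. Of 26 listed, 19 were measured, with 1 higher and 2 lower over all arrays, against 15.3% and 11.2% of all genes. Without dorsal controls 4 and 5, 8 were higher and 2 lower, against 21.1% and 17.2% of all genes. Without dorsal control 5 alone, 4 were higher. Isl1, a LIM homeobox factor of striatal and hypothalamic neurons, read 4.34, 4.56 and 4.40 on dorsal controls 1 to 3, 7.84 and 9.45 on dorsal controls 4 and 5, and 9.52, 9.09 and 9.85 on the ventral arrays. It did not pass over all arrays (3.37 ± 1.18, limma adjusted p = 0.0645) and passed without dorsal controls 4 and 5 (5.05, adjusted p = 1.61e-06). The factors that passed over all arrays were Foxp4 (0.95 ± 0.14), Foxp1 (-2.63 ± 0.42) and Tshz1 (-0.75 ± 0.11). Foxp1, a forkhead factor of striatum and cortex, read 8.57 to 8.72 on dorsal controls 1 to 3, 9.35 and 10.53 on dorsal controls 4 and 5, and 6.32 to 6.89 on the ventral arrays, with a difference of -2.12 without dorsal controls 4 and 5. Least favourable probes gave 0.12 for Foxp4, which did not pass, and -1.54 for Foxp1.

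Genes of cortical and hippocampal neurons were lower in ventral tissue in 19 of 32 measured of 42 listed, against 11.2% of all genes. Prox1 was the 1 higher, against 15.3% of all genes, and the median was -1.67. Slc17a7, the vesicular glutamate transporter of cortical neurons, read 11.38, 11.91, 11.61, 11.78 and 9.04 on the dorsal arrays and 4.68, 6.05 and 4.50 on the ventral arrays (-6.06 ± 0.66, limma adjusted p = 0.000254), the largest negative difference of all genes tested. Nrgn, the postsynaptic calmodulin-binding protein neurogranin, read 11.51 to 12.09 on the dorsal arrays and 7.41 to 7.98 on the ventral arrays (-4.24 ± 0.18, limma adjusted p = 1.88e-06). Itpka, a kinase of dendritic spines, differed by -4.61 ± 0.18, the dendritic gene Ddn by -4.57 ± 0.24 and Camk2a, the kinase of glutamatergic synapses, by -3.03 ± 0.32. All 5 dorsal arrays lay above all 3 ventral arrays for each of these genes, and dorsal control 5 was the lowest dorsal array for Slc17a7 and Camk2a. Hpca, the calcium sensor hippocalcin, differed by -2.57 ± 0.27 (limma adjusted p = 0.000193).

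Slc17a6, the vesicular glutamate transporter that serves most subcortical glutamate neurons, read 10.97, 9.85, 10.78, 8.19 and 5.84 on the dorsal arrays and 12.62, 12.88 and 12.26 on the ventral arrays (3.46 ± 1.06, limma adjusted p = 0.0397). The dorsal arrays spanned a wide range for Slc17a6, with dorsal control 5 the lowest, and the ventral arrays a narrow range above all of them. The call was lost without dorsal control 2 (adjusted p = 0.0566), without dorsal control 4 (adjusted p = 0.0779) and without ventral control 1, 2 or 3 (adjusted p = 0.112, 0.117 and 0.101), and the difference was 2.06 without dorsal controls 4 and 5 (adjusted p = 0.000906). Among 18 measured of 27 listed genes of transmitter synthesis and transport, 9 were higher and 1, Slc17a7, was lower. Of all genes 15.3% were higher and 11.2% lower. Without dorsal control 5 the lower count of this list was 2.

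Monoamine genes made up much of that count. Hdc, the enzyme of histamine synthesis in the tuberomammillary nucleus, read 6.25, 5.97, 6.01, 5.25 and 5.88 on the dorsal arrays and 10.91, 11.65 and 9.89 on the ventral arrays (4.95 ± 0.37, limma adjusted p = 3.43e-05). Ddc, the decarboxylase of dopamine and serotonin synthesis, read 9.00, 8.65 and 9.49 on the ventral arrays against 5.28 to 6.80 on the dorsal arrays (3.15 ± 0.36, limma adjusted p = 0.000333). Th, the rate-limiting enzyme of catecholamine synthesis, read 7.10, 6.14 and 7.74 against 4.37 to 5.39 (2.12 ± 0.36, limma adjusted p = 0.00275). Ventral and dorsal arrays did not overlap for Hdc, Ddc or Th, and ventral control 2 was the highest ventral array for Hdc and the lowest for the other 2 genes. The dopamine transporter Slc6a3 differed by 1.03 ± 0.14, the cofactor enzyme Gch1 by 1.39 ± 0.14, the oxidase Maob by 1.06 ± 0.16, acetylcholinesterase Ache by 1.92 ± 0.17 and the nitric oxide synthase Nos1 by 1.03 ± 0.12. The GABA synthesis gene Gad2 (0.96 ± 0.31, limma adjusted p = 0.0515) and the vesicular transporter Slc32a1 (0.62 ± 0.33, limma adjusted p = 0.197) did not pass.

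Of 33 measured of 63 listed receptors for peptides, steroids and orphan ligands, 14 were higher and 4 lower. Of all genes 15.3% were higher and 11.2% lower, and the median of the list was 0.46. Ret, the receptor tyrosine kinase of GDNF ligands, read 4.62, 5.19, 4.64, 4.62 and 4.38 on the dorsal arrays and 8.17, 8.56 and 8.14 on the ventral arrays (3.60 ± 0.19, limma adjusted p = 4.67e-06). Trhr, the receptor of thyrotropin-releasing hormone, was undetected on the dorsal arrays and read 6.74, 6.85 and 7.09 on the ventral arrays, at least 4.12-fold higher (limma adjusted p = 2.39e-06). Ntsr1, a neurotensin receptor, differed by 2.24 ± 0.30 (limma adjusted p = 0.000848). For Trh and for Nts, ligand and receptor were thus both higher in ventral tissue.

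Some receptors of the feeding circuit were higher by smaller amounts. Npy1r, Npy5r, Lepr and Insr were measured and did not pass. The ghrelin receptor Ghsr and the neuropeptide Y receptor Npy2r were undetected on the dorsal arrays and were at least 1.84-fold and 1.91-fold higher, and the melanocortin receptors Mc3r and Mc4r at least 1.47-fold and 1.30-fold. Mc3r lost its call without ventral control 3 (adjusted p = 0.0506). The orexin receptor Hcrtr1 (0.96 ± 0.18), the neurokinin B receptor Tacr3 (1.16 ± 0.22), the PACAP receptor Adcyap1r1 (1.19 ± 0.12) and the nociceptin receptor Oprl1 (1.68 ± 0.25) were higher too. Mchr1, the receptor of melanin-concentrating hormone, went the other way from its ligand, with 6.12, 6.06, 6.22, 6.63 and 6.73 on the dorsal arrays and 5.47, 5.57 and 5.11 on the ventral arrays (-0.97 ± 0.19, limma adjusted p = 0.0061). All dorsal arrays lay above all ventral arrays for Mchr1, and dorsal controls 4 and 5 were the highest.

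The other 3 lower receptors were the orphan receptors Gpr3, Gpr12 and Gpr22, and the count of lower receptors fell from 4 to 1 without ventral control 1 or without ventral control 3. Gpr22 differed by -1.16 ± 0.30 (limma adjusted p = 0.0209), with an adjusted p of 0.0952 without ventral control 1 and 0.061 without ventral control 3. Gpr149, an orphan receptor, read 4.39, 4.65, 4.54, 5.74 and 6.91 on the dorsal arrays and 7.73, 6.52 and 7.23 on the ventral arrays (1.92 ± 0.57, limma adjusted p = 0.0365). Its regions overlapped through dorsal control 5, a further probe of the gene gave -0.17, and the call was lost without dorsal control 1, 2 or 3 or any ventral array, with adjusted p from 0.0508 to 0.141. The Gpr149 difference was 2.64 without dorsal controls 4 and 5. Of 16 measured receptors for monoamines, adenosine and cannabinoids, 0 passed in limma in either direction over all arrays, and the histamine receptor Hrh3, with the smallest p of them, differed by -0.89 ± 0.30 (limma adjusted p = 0.0553). Without dorsal control 5, 5 of these receptors were lower, and without dorsal control 1, 2 were.

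Gabrd, the delta subunit of extrasynaptic GABA-A receptors, read 9.81, 9.30, 9.72, 9.64 and 10.03 on the dorsal arrays and was undetected on the ventral arrays (4.40 to 4.63), at least 30-fold lower (limma adjusted p = 2.17e-07). Gabrg1, a gamma subunit, read 7.48, 7.23 and 7.44 on the ventral arrays against 4.89 to 5.09 on the dorsal arrays (2.39 ± 0.11, limma adjusted p = 2.23e-06). The subunits Gabrq (1.25 ± 0.12) and Gabrb1 (0.95 ± 0.15) were higher. Of 17 measured of 31 listed GABA, glycine and nicotinic receptor genes, 7 were higher and 1, Gabrd, lower. Of all genes 15.3% were higher and 11.2% lower. Without dorsal control 4 the lower count of this list was 2.

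Glycine receptor subunits were on the higher side. Glra2 read 5.86, 6.25, 6.29, 8.01 and 7.99 on the dorsal arrays and 9.52, 9.37 and 9.43 on the ventral arrays (2.56 ± 0.52, limma adjusted p = 0.00649). Dorsal controls 4 and 5 stood between dorsal controls 1 to 3 and the ventral arrays, and without them the difference was 3.31. The adjusted p of Glra2 was 0.0581 with chip as a block. Glra3 differed by 0.78 ± 0.13, and Glra1, undetected on the dorsal arrays, was at least 1.30-fold higher. The nicotinic subunit Chrna4 read 7.14, 6.91, 7.00, 6.61 and 5.08 on the dorsal arrays and 7.78, 8.62 and 8.51 on the ventral arrays (1.76 ± 0.45, limma adjusted p = 0.0198), and its call was lost without ventral control 2 (adjusted p = 0.0788) or 3 (adjusted p = 0.0809). Another Chrna4 probe gave 0.04 (adjusted p = 0.926).

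Among 15 measured of 24 listed glutamate receptor genes, 2 were higher and 5 lower, against 15.3% and 11.2% of all genes. The NMDA receptor subunit Grin3a read 9.33, 9.74, 9.34, 9.48 and 8.86 on the dorsal arrays and 11.15, 11.19 and 11.29 on the ventral arrays (1.86 ± 0.18, limma adjusted p = 0.000139), and the kainate receptor subunit Grik1 differed by 1.78 ± 0.22. The subunits Grin2a and Grin2b, which confer most NMDA receptor kinetics in forebrain, were lower. Grin2a was undetected on the ventral arrays, lower by a factor of at least 2.37 (limma adjusted p = 0.00281), and Grin2b differed by -1.35 ± 0.27 (limma adjusted p = 0.00576). Of the AMPA and kainate subunits, Gria3 (-1.29 ± 0.15), Grik5 (-0.80 ± 0.17) and Gria2 (-0.66 ± 0.16) were lower, the last with an adjusted p of 0.0584 without ventral control 1 and 0.0519 without ventral control 2.

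Potassium channel genes were more often lower than higher, with 4 higher and 13 lower of 48 measured of 69 listed. The median was -0.55, and of all genes 15.3% were higher and 11.2% lower. Kcnh3, a voltage-gated channel of cortex and hippocampus, read 8.75, 9.26, 8.89, 8.79 and 9.13 on the dorsal arrays and was undetected on the ventral arrays (4.34 to 4.52), at least 18-fold lower (limma adjusted p = 2.17e-07). Kcnj4, an inward rectifier of striatal and cortical neurons, read 7.95, 8.45, 7.88, 8.85 and 9.46 against 5.17, 4.65 and 4.46 (-3.75 ± 0.36, limma adjusted p = 0.000128). No array of one region reached the other for either channel, and dorsal control 5 was the highest for Kcnj4. Kcnh1 differed by -1.90 ± 0.36, the channel-interacting protein Kcnip2 by -1.85 ± 0.32 and Kcnip3 by -1.24 ± 0.17. Kcnq5, undetected on the ventral arrays, was at least 1.88-fold lower.

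The 4 higher potassium channel genes were Kcnip1 (1.18 ± 0.33), Kcnj16 (0.87 ± 0.25), Kcnh2 (0.83 ± 0.17) and Kctd4 (0.56 ± 0.16). The count of 4 became 2 without dorsal control 3 and 1 without ventral control 1 or 3. Kcnj16 and Kctd4 lost their calls on leaving out any of 5 single arrays, with adjusted p up to 0.131 and 0.127 without ventral control 3. Kcnip1 had an adjusted p of 0.0509 without dorsal control 4, 0.106 without ventral control 1 and 0.116 without ventral control 3. Without dorsal controls 4 and 5 the list gave 7 higher and 27 lower, against 21.1% and 17.2% of all genes.

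Of 37 measured of 50 listed genes of sodium, calcium and cation channels, 5 were higher and 9 lower, against 15.3% and 11.2% of all genes, and with chip as a block 2 were higher and 6 lower. Scn4b, a sodium channel beta subunit of striatal and large projection neurons, read 11.19, 9.96, 10.75, 12.29 and 13.32 on the dorsal arrays and 7.47, 8.32 and 7.36 on the ventral arrays (-3.79 ± 0.68, limma adjusted p = 0.00363), and another probe gave -0.57 (adjusted p = 0.324). It was higher on dorsal controls 4 and 5 than on the other dorsal arrays, and the difference without them was -2.92. Cacng3, an AMPA receptor auxiliary subunit, differed by -2.30 ± 0.19 (limma adjusted p = 6.74e-05), and its relative Cacng5 by 1.71 ± 0.18 (limma adjusted p = 0.000209), or 0.09 on its least favourable probe (adjusted p = 0.696). The pacemaker channel Hcn3 differed by 1.5 ± 0.18, the cation channel Trpc5 by 0.67 ± 0.18 and the sodium leak channel Nalcn by 0.43 ± 0.14. Trpc5 lost its call without dorsal control 1 (adjusted p = 0.0511) or ventral control 1 or 3 (adjusted p = 0.0767 and 0.105), and Nalcn on leaving out any array except dorsal control 5 (adjusted p up to 0.191).

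Clic6, a chloride channel protein, read 4.65, 4.59, 4.51, 7.27 and 8.30 on the dorsal arrays and 8.77, 8.76 and 9.10 on the ventral arrays (3.01 ± 0.88, limma adjusted p = 0.0341). Dorsal controls 4 and 5 approached the ventral level for Clic6, and without them the difference was 4.29 (adjusted p = 6.92e-07). The Clic6 call was lost on leaving out any array other than dorsal control 4 or 5, with adjusted p from 0.066 to 0.113. The count of 5 higher channels was 2 without dorsal control 1 or without ventral control 1 or 3, and 3 without dorsal control 2 or 3 or without ventral control 2.

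**Figure D3:**
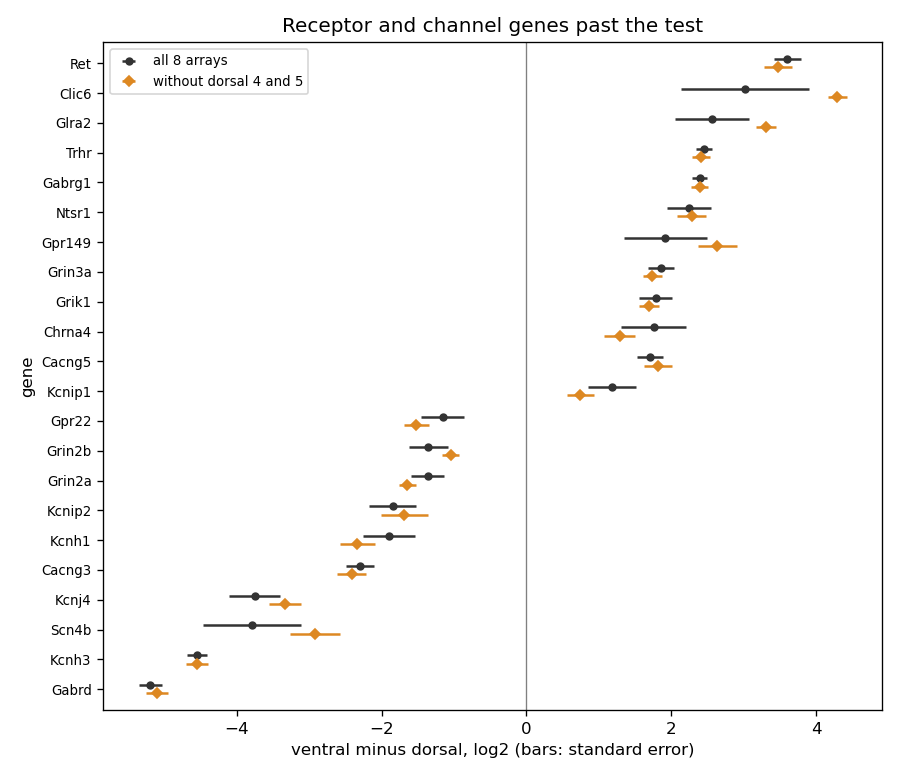
Ventral minus dorsal differences in log2, with standard errors, for 22 receptor and channel genes named by rule, over all 8 arrays in black and without dorsal controls 4 and 5 in orange. Gabrd and Kcnh3, undetected on the ventral arrays and drawn at fitted values that are not bounds, lie lowest, and over all 8 arrays Ret at 3.60 lies highest.

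Immediate early genes, which neurons transcribe within minutes of activity, were lower in ventral tissue. Of 18 measured of 20 listed immediate early and heat shock genes, 12 were lower and 0 higher, against 11.2% and 15.3% of all genes. The median was -1.84. Egr3, a zinc finger factor, read 11.13, 11.45, 11.48, 11.16 and 11.23 on the dorsal arrays and 6.5, 6.45 and 5.36 on the ventral arrays (-5.19 ± 0.25, limma adjusted p = 3.05e-06). Arc, whose product acts at active synapses, read 10.78, 11.51, 11.49, 11.19 and 10.10 against 5.97, 6.81 and 5.78 (-4.83 ± 0.36, limma adjusted p = 3.36e-05). Egr1, a zinc finger factor of the same family, read 12.83 to 13.07 on the dorsal arrays and 10.88, 10.88 and 9.43 on the ventral arrays (-2.59 ± 0.31, limma adjusted p = 0.000393). Dorsal controls 4 and 5 lay well above every ventral array for these genes, and ventral control 3 was the lowest array for all 3. Another Egr3 probe gave -0.10 (adjusted p = 0.595).

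The remaining 9 were Egr4 (-3.89 ± 0.41), Egr2 (-3.00 ± 0.36), the synaptic scaffold Homer1 (-2.84 ± 0.10), Junb (-2.66 ± 0.43), Npas4 (-2.12 ± 0.30), the phosphatases Dusp1 (-1.84 ± 0.19) and Dusp6 (-1.84 ± 0.18), Fosb (-1.27 ± 0.28) and the pentraxin Nptx2 (-1.24 ± 0.28). Another Homer1 probe gave -0.12 (adjusted p = 0.546). With chip as a block 10 of the 12 passed, without Fosb and Nptx2. Fosb and Nptx2 each had an adjusted p of 0.052 without ventral control 3. Fos itself read 8.02, 8.47, 8.44, 8.60 and 8.16 on the dorsal arrays and 7.91, 7.91 and 5.69 on the ventral arrays and did not pass (-1.17 ± 0.47, limma adjusted p = 0.0973). The heat shock gene Dnajb1 did not pass either (0.28 ± 0.15, limma adjusted p = 0.213), with 10.56 to 11.09 on the dorsal and 11.03 to 11.35 on the ventral arrays. Time from death to freezing, handling and the state of the animals are not known from the labels. Their part in the result was not tested.

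**Figure D4:**
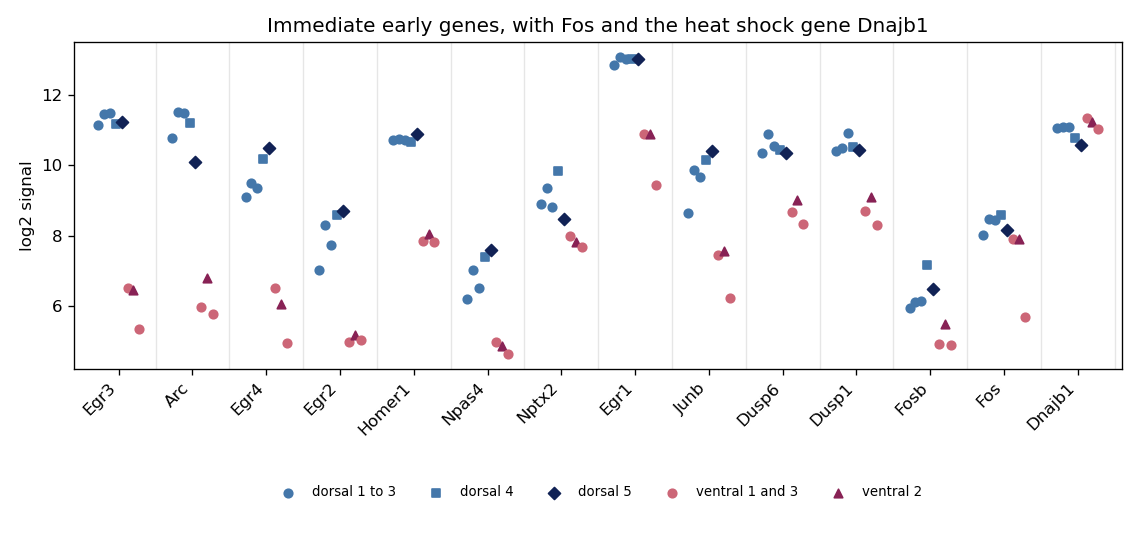
Log2 signal of the 12 immediate early genes that passed and of Fos and Dnajb1, 1 point per array. Every dorsal array lies above every ventral array for the 12 genes, and the regions overlap for Dnajb1.

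Promoter windows of 2 of these genes are shown because cyclic AMP response elements are known to serve activity-dependent transcription. Egr4 lies at chr6:85513540-85513839 (minus strand) and Npas4 at chr19:4989922-4990221 (minus strand), in the same RefSeq table and build. Capitals mark each match to TGACGT on either strand.
Egr4: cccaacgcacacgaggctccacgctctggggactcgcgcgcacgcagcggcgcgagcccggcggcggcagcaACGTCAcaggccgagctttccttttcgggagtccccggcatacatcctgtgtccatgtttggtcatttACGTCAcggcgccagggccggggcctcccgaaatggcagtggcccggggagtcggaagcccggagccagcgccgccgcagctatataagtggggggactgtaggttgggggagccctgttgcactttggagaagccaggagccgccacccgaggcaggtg
Npas4: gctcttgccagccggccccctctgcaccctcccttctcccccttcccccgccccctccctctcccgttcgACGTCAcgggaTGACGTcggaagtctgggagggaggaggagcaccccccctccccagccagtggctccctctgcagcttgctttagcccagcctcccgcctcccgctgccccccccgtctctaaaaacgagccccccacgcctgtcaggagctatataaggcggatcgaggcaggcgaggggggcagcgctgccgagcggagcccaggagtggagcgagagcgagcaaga
TGACGT was found 2 times in each of these windows and 0 times in those of Junb and Fosb, and 7.51% of all windows hold it. The CArG box of serum response factor, searched in the same 4 windows, was found in 0 of them and in 1.63% of all windows. Nothing follows from the absence of letters about a factor's action.

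Of 22 measured of 24 general astrocyte genes 8 were higher and 2 lower, against 15.3% and 11.2% of all genes. The median was 0.44, and the glutamate transporter Slc1a3 (0.24 ± 0.16, limma adjusted p = 0.3) and Gfap (1.08 ± 0.41, limma adjusted p = 0.0887) did not pass. The largest was Ntsr2, a neurotensin receptor of astrocytes, at 0.93 ± 0.16, followed by the transporter Slc7a10 (0.81 ± 0.13), the water channel Aqp4 (0.77 ± 0.15) and Atp1b2 (0.74 ± 0.16). Slc1a2, the main glutamate transporter of astrocytes, was lower (-0.63 ± 0.16, limma adjusted p = 0.0186), with an adjusted p of 0.0661 without ventral control 2 and 0.0846 without ventral control 3. The count of 2 lower, Slc1a2 and Dio2, became 0 without ventral control 3 and 1 without any other single array except dorsal control 4 or 5.

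Of 17 measured astrocyte genes known to vary by region, 9 were higher and 2 lower, against 15.3% and 11.2% of all genes. The median was 1.08. Agt, the angiotensinogen gene of diencephalic and brainstem astrocytes, read 4.87, 4.79, 4.55, 4.59 and 4.52 on the dorsal arrays and 9.25, 9.62 and 9.44 on the ventral arrays (4.77 ± 0.13, limma adjusted p = 1.07e-07). Igsf1, an immunoglobulin superfamily gene, read 4.77 to 5.16 on the dorsal arrays and 11.03, 10.96 and 10.85 on the ventral arrays (6.00 ± 0.12, limma adjusted p = 1.97e-08), and its least favourable probe gave 2.27. Itih3 differed by 3.83 ± 0.26, the matricellular gene Sparc by 3.38 ± 0.16, the GABA transporter Slc6a11 by 2.59 ± 0.19 and the glycine transporter Slc6a9 by 1.70 ± 0.16. All ventral arrays lay above all dorsal arrays for each of these 6 genes, dorsal controls 4 and 5 included. The 2 lower were Lhx2 and Crym, a thyroid hormone binding protein that read 5.48, 7.87, 6.80, 9.10 and 10.24 on the dorsal and 4.48 to 5.10 on the ventral arrays (limma adjusted p = 0.0404), with a difference of -1.84 without dorsal controls 4 and 5. The Crym call was lost without dorsal control 2 or 4 or any ventral array, with adjusted p from 0.0715 to 0.134, and the lower count of 2 was 0 without dorsal control 2 or any ventral array and 1 without dorsal control 1, 3 or 4.

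Oligodendrocyte and myelin genes depended on dorsal controls 4 and 5. Of 23 measured of 32 listed, 1 was higher and 0 lower over all arrays, against 15.3% and 11.2% of all genes. The median was 0.71. Without these 2 arrays 21 were higher, against 21.1% of all genes, and the median was 1.25. Without dorsal control 4 alone 9 were higher, and without dorsal control 5 alone 3 were. Cnp, an enzyme of myelinating cells, read 9.10, 9.09 and 8.99 on dorsal controls 1 to 3, 11.05 and 10.33 on dorsal controls 4 and 5, and 9.91, 10.81 and 10.28 on the ventral arrays. Mobp read 9.13 to 9.77, then 11.14 and 10.60, and 10.57 to 11.17 in the same order, and Mog 7.81 to 8.44, then 10.26 and 9.28, and 9.13 to 9.82. For all 3 genes dorsal controls 4 and 5 lay within or above the ventral arrays and apart from the other dorsal arrays. The single call over all arrays was Nkx6-2, a homeobox factor of mature oligodendrocytes, at 6.72 to 7.00, then 8.19 and 7.61, and 9.68, 9.28 and 9.87 on the ventral arrays (2.33 ± 0.33, limma adjusted p = 0.00101).

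Genes of oligodendrocyte progenitors were higher in 6 of 13 measured and lower in 0, against 15.3% and 11.2% of all genes. The median was 0.73, and with chip as a block 3 were higher. Lhfpl3 differed by 1.19 ± 0.17, the lineage factor Olig1 by 0.97 ± 0.21 and the phosphatase Ptprz1 by 0.91 ± 0.12. Of 16 measured genes of microglia and macrophages 0 were higher and 2 lower (11.2% of all genes were lower), Siglech (-0.98 ± 0.18) and C1qc (-0.44 ± 0.11). Neither passed with chip as a block (adjusted p = 0.0521 and 0.145). C1qc lost its call without ventral control 1 (adjusted p = 0.0663) or 3 (adjusted p = 0.0995). Of 24 measured genes of endothelial and mural cells 1 was higher, Pltp (0.76 ± 0.15), and 1 lower, Esam (-0.44 ± 0.13). Of all genes 15.3% were higher and 11.2% lower. The Esam call was lost on leaving out any array except dorsal control 4 or 5 (adjusted p from 0.065 to 0.164). The tight junction gene Cldn5 differed by 0.32 ± 0.15 (limma adjusted p = 0.155).

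Most of the measured ependymal and choroid plexus genes were higher in ventral tissue. Of 10 measured of 17 listed ependymal and tanycyte genes 6 were higher and 1, Crym, lower, against 15.3% and 11.2% of all genes. Their median was 1.09. The lower count was 0 without dorsal control 2 or 4 or any ventral array. The cilia genes Fam183b (3.68 ± 0.42), Dynlrb2 (2.56 ± 0.28) and Rsph1 (2.25 ± 0.21) led them. Fam183b read 5.73, 6.57, 5.54, 6.14 and 4.49 on the dorsal arrays and 9.69, 8.89 and 9.54 on the ventral arrays, with no overlap. Of 6 measured of 17 listed choroid plexus genes 5 were higher, namely Clic6, Slc5a5, Ttr, Sostdc1 and Kl, against 15.3% of all genes. This count was 3 without dorsal control 1, 2 without ventral control 1 or 2, and 1 without ventral control 3. Sostdc1 (5.04 to 5.44) and Kl (5.22 to 5.48) lay near the lowest detected signals of the ventral arrays (4.78 to 4.80). Ttr, which encodes transthyretin, read 6.13, 6.99, 5.21, 6.73 and 5.64 on the dorsal arrays and 7.38, 7.77 and 7.57 on the ventral arrays (1.43 ± 0.38, limma adjusted p = 0.0222), with adjusted p = 0.0564, 0.0825 and 0.075 without ventral control 1, 2 or 3. The count of choroid plexus genes higher was 2 with chip as a block.

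Pan-neuronal genes gave 1 higher and 2 lower of 14 measured, against 15.3% and 11.2% of all genes, with a median of 0.09. Their level was 0.24 to 0.31 on dorsal controls 1 to 3, -0.10 and -0.63 on dorsal controls 4 and 5 and -0.05 to 0.01 on the ventral arrays. Rbfox3, which encodes the neuronal antigen NeuN, read 12.36 to 13.16 on the dorsal arrays and 11.14 to 11.48 on the ventral arrays (-1.54 ± 0.19, limma adjusted p = 0.000521). The synaptic vesicle protein Syt1 differed by -0.79 ± 0.17 (limma adjusted p = 0.00927). Uchl1, a neuronal hydrolase, differed by 0.58 ± 0.16 (limma adjusted p = 0.0293) and lost its call without dorsal control 1 (adjusted p = 0.0604) or ventral control 1 (adjusted p = 0.117) or 2 (adjusted p = 0.0956).

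Interneuron genes gave 5 higher and 2 lower of 16 measured, against 15.3% and 11.2% of all genes. The lower count was 5 without dorsal control 5. Calb2, the calcium buffer calretinin that is abundant in diencephalon, read 7.26, 7.94, 7.49, 7.34 and 6.19 on the dorsal arrays and 12.34, 12.54 and 12.39 on the ventral arrays (5.18 ± 0.33, limma adjusted p = 1.39e-05). Chodl, a marker of rare long-range interneurons, differed by 2.39 ± 0.24 (limma adjusted p = 0.000159). Pvalb, the parvalbumin gene of fast-spiking cells, read 12.88, 12.28, 12.70, 11.19 and 9.62 on the dorsal arrays and 10.03, 10.67 and 9.93 on the ventral arrays and did not pass (limma adjusted p = 0.134), and without dorsal controls 4 and 5 its difference was -2.41. Of 15 measured genes of neurofilaments and large axons 6 were higher and 1, Thy1, lower, against 15.3% and 11.2% of all genes. The 6 were Prph, Sncg, Resp18, Ecel1, Slc17a6 and Uchl1, and Sncg, Slc17a6 and Uchl1 are also in other lists. Nefm, Ina, Kcna1, Kcna2, Vamp1 and Cntnap1 were measured and did not pass. The higher count was 4 on leaving out any ventral array. The lower count was 3 without dorsal control 5 and 0 without dorsal control 1, 3 or 4 or ventral control 1 or 3. Prph, an intermediate filament, was undetected on the dorsal arrays and read 6.72, 7.82 and 6.41 on the ventral arrays, at least 4.40-fold higher (limma adjusted p = 0.000251). Resp18 (2.77 ± 0.35) and Ecel1 (3.67 ± 0.84) were also higher, the second with an adjusted p of 0.0519 without ventral control 3. Ecel1 read 4.6, 4.92 and 4.57 on dorsal controls 1 to 3 and 6.99 and 8.29 on dorsal controls 4 and 5, and without these its difference was 4.85.

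Thalamic neuron genes gave 7 higher and 2 lower of 16 measured of 21 listed, against 15.3% and 11.2% of all genes. Their median was 0.70, and Tcf7l2, Slc17a6 and Calb2 were among the higher. Zfhx3, a homeobox factor of several subcortical nuclei, read 5.36, 5.50, 5.61, 6.92 and 7.93 on the dorsal arrays and 8.48, 8.50 and 8.20 on the ventral arrays (2.13 ± 0.56, limma adjusted p = 0.0218). Dorsal controls 4 and 5 stood closest to the ventral arrays, and the call was lost without ventral control 1, 2 or 3 (adjusted p = 0.0764, 0.0731 and 0.0631). The Zfhx3 difference was 2.90 without dorsal controls 4 and 5. The count of 7 higher was 3 without ventral control 1 or 2 and 4 without dorsal control 4 or ventral control 3. The 2 lower, Tnnt1 (-1.63 ± 0.45) and Ramp3 (-1.10 ± 0.34), were 0 without dorsal control 1, 2 or 3 or ventral control 1 or 3, and 1 without dorsal control 4 or ventral control 2.

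The striatal list gave 0 higher and 6 lower of 24 measured of 30 over all arrays, against 15.3% and 11.2% of all genes. Its median was -1.33 over all arrays. The median was 0.05 within chip 1, where the dorsal array was dorsal control 1, and -3.91 within chip 3, where it was dorsal control 5. Without dorsal controls 4 and 5 the list gave 6 higher and 7 lower with a median of -0.10, against 21.1% and 17.2% of all genes. Tac1, the substance P gene of striatum and hypothalamus, read 5.88, 7.33 and 6.95 on dorsal controls 1 to 3, 11.19 and 11.29 on dorsal controls 4 and 5, and 10.13, 10.49 and 9.93 on the ventral arrays. Arpp21, a phosphoprotein shared by striatal and cortical neurons, read 12.47 to 12.81, then 13.85 and 14.26, and 8.46 to 9.46 in the same order (-4.17 ± 0.44, limma adjusted p = 0.000225), with -3.59 without dorsal controls 4 and 5 and -0.65 on its least favourable probe. The label dorsal therefore covers arrays with low and with high striatal signal, and the label ventral arrays with low striatal signal and with high hypothalamic signal.

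Markers of attached tissue and of sex varied between single arrays. Fibroblast and meningeal genes were highest on ventral control 2 (level 1.24) and dorsal control 1 (0.90) and lay between -0.85 and 0.41 on the others, and 0 of 15 measured passed in limma. Dcn, which had the smallest p of them, differed by 0.95 ± 0.43 (limma adjusted p = 0.139). Of 8 measured blood genes 1 was lower, Slc25a37 (-1.01 ± 0.15), against 11.2% of all genes. Of 9 measured olfactory bulb genes 3 were higher, Th, Slc6a3 and Omp, the last not without dorsal control 1 or 3 or ventral control 1 or 3 (adjusted p from 0.0512 to 0.101). Of 7 measured cerebellar genes 2 were higher and 0 lower (1 lower without dorsal control 1, 3 or 5). Of 5 measured genes of neurogenic zones and dividing cells 2 were higher, Sox11 and Tyms (1 without dorsal control 1 or 3 or any ventral array). These counts from small lists stand against 15.3% higher and 11.2% lower of all genes. Chgb, the only measured gene of the pituitary list, did not pass (-0.50 ± 0.19, limma adjusted p = 0.0898). Neither of the 2 measured sex-linked genes passed. Xist, the transcript of the inactive X chromosome, read 4.29 on dorsal control 5 and 4.36 on ventral control 1 and 8.89 to 9.95 on the other arrays. The part of these tissues and of sex in the regional differences was not tested beyond the values given.

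**Figure D5:**
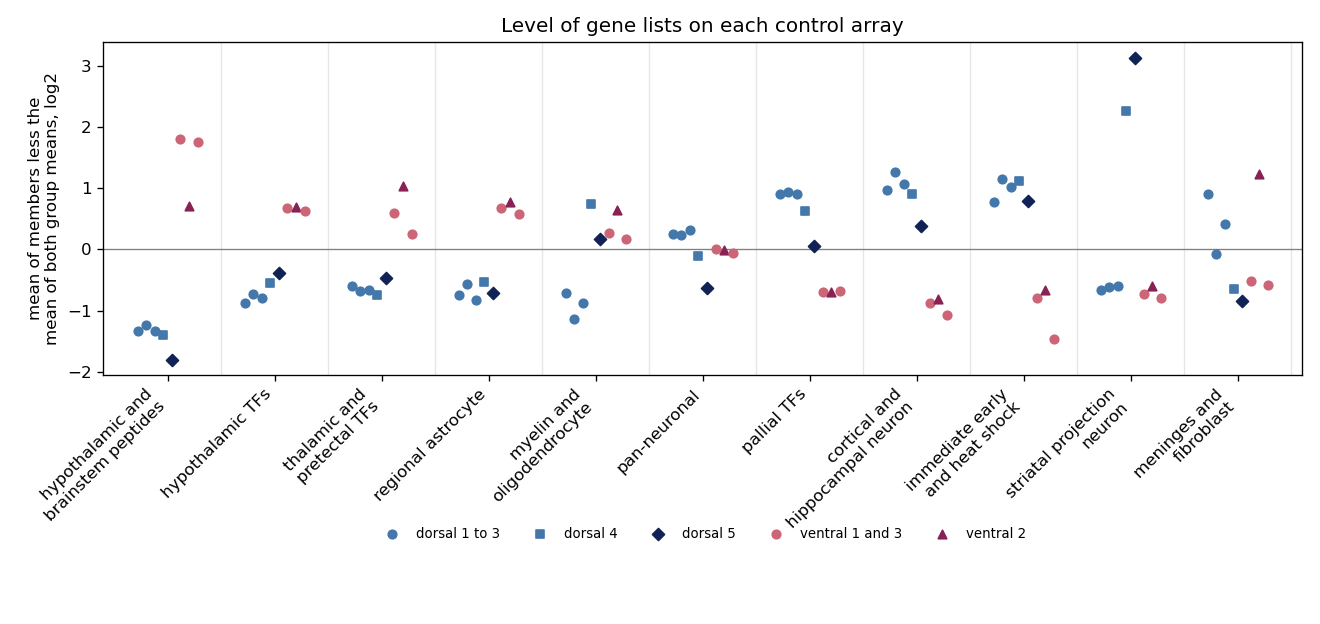
Level of 11 gene lists on each of the 8 arrays, averaged over measured members after subtracting each member's midpoint between the group means, in log2 units, with dorsal arrays in blue and ventral arrays in red (TF, transcription factor). Dorsal controls 4 and 5 stand at 2.26 and 3.14 for striatal genes, and ventral control 2 stands lowest of the ventral arrays for peptides and highest for thalamic factors and meningeal genes.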

How the data were processed

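Total RNA from 16 brain samples was measured on Illumina bead arrays, and the 8 control arrays, 3 ventral and 5 dorsal, were used. The deposited files hold, per the file headers, a signal intensity and a detection p-value for each of 45281 probes and array, without normalization. The authors also deposited a log2 table of 38563 probes, which served as an alternative. Its scale was set against the intensities, and its normalization is not stated by the labels.

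Background was corrected with the normexp method, its negative controls inferred from detection p-values, with an offset of 16, followed by quantile normalization and log2 (neqc in limma 3.58.1, R 4.3.3), over the 8 control arrays. Probes with a detection p under 0.05 on at least 3 arrays were kept (19895), of which 15771 had 1 gene name from the platform annotation, updated by Entrez ID, and 4124 did not. The probe with the highest mean stood for each of 10520 genes, 3696 of which had more than 1 kept probe. A fit of 2 group means with lmFit and eBayes in limma gave differences, standard errors and Benjamini-Hochberg adjusted p-values over all genes, called under 0.05. The procedure was tested on simulated data.

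A gene that no array of the lower group detected is given as a bound, "at least N-fold", against the higher of its own signal and the lowest signal among detected probes on each array. Lists hold 975 entries for 872 genes in 37 lists, 528 of them measured. Members, lists and alternatives were chosen with earlier results of these data known. Genes named are the 15 largest differences each way, every transcription factor and peptide of the lists that passed, up to 4 passing members and the most changed opposite member of other lists, the member with the smallest p where 0 passed, and others added after their values were seen. Alternatives covered background, normalization, filter, probe choice, array weights, chip, replicate number and leaving out arrays. The number of arrays limits precision. Whether replicates were separate mice is stated by the labels only as biological replicates. Promoter windows are from RefSeq on GRCm38.p6, and figures were drawn with matplotlib 3.10.9.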

Additional observations from a re-analysis of the deposited data

Results flagged for a closer look

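A dorsal array was listed here where its gap to the nearest other dorsal array was large against the whole range of the 5 (Dixon's criterion). Chance alone lists about 1 in 20 groups chosen without regard to their values. Of 227 named genes 19 were listed, and of 37 lists 2 were. Some genes were named after their values were seen, and spread within the dorsal arrays could be a ground for naming. The rate therefore cannot be set against these counts. The 3 ventral arrays were too few for this criterion.

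Dorsal control 5 was the array in 13 of the 21 cases. It was low for the cortical genes Slc17a7 (9.04), Cck (8.36), Tbr1 (5.61) and Neurod2 (6.21), and for Chrna4 (5.08), Resp18 (8.26), Itih3 (7.83) and Ptprz1 (6.61). It stood apart for Dlx1, a subpallial homeobox factor, at 6.05 and for the potassium channel gene Kcnj16 at 5.01. Its Xist value was 4.29. Its level was -1.78 for the sex-linked list and -0.56 for the list of neurogenic zone and dividing cell genes.

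Dorsal control 4 stood apart for Gpx3 (6.68) and Scg2 (11.31), and dorsal control 3 for the phosphatase Dusp1 (10.91). Dorsal control 1 stood apart for Lhx1 (4.33), Prph (4.61) and Egr1 (12.83), and dorsal control 2 for Dynlrb2 (5.8) and Glra1 (4.6). The genes Lhx1, Prph and Glra1 were undetected on all dorsal arrays, so these gaps lie at background.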

How the results depend on the processing

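The count of 2791 genes changed by over 1.5 times under few settings. Normalization and fit over all 16 arrays gave 1111 genes, 606 higher and 505 lower, and chip as a block gave 1625, 939 higher and 686 lower. The chip block leaves out dorsal controls 2, 3 and 4 in effect, since their chip held no ventral array. Array weights gave 4244, 1858 of them lower, and leaving out dorsal controls 4 and 5 gave 1808 lower genes of 4030. No background correction left 166 genes at least 2-fold higher and 220 lower, and an offset of 50 left 316 higher. Leaving out single arrays gave 1680 (without ventral control 3) to 3427 genes (without dorsal control 5), with 1800 without ventral control 1, 980 to 1881 higher and 700 to 1546 lower. Same-numbered dorsal and ventral arrays did not deviate together (r from -0.04 to -0.004), so the numbers were not taken as pairs, and the replicate block, which leaves out dorsal controls 4 and 5 in effect, gave 3856 genes. Directions reversed for Tsr3 (-1.81) and Gpr149 (-0.17) with the least favourable probe, for Gpr149 within chip 3 (-0.027), and for Xist, which did not pass, with chip as a block (0.59) and without ventral control 1 (0.66, against -1.91 without dorsal control 5). The causes were not tested. Of 197 named genes that passed, 152 passed on leaving out any single array. Named calls were lost for 45 genes with chip as a block, 61 in the fit over all 16 arrays, 20 with the least favourable probe and 19 without the detection filter. Signals near background give bounds and not folds.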

Other observations

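Imprinted genes, which are expressed from the copy of one parent, were listed after their values were seen, so they carry no test as a list. Of 41 listed, 27 were measured, 13 were higher in ventral tissue, 10 of them at least 2-fold, 0 were lower and 14 did not pass, with a median difference of 0.65 against 0.02 over all genes, of which 15.3% were higher. Dlk1, a paternally expressed Notch ligand homologue, read 4.47, 4.78, 4.41, 4.96 and 5.01 on the dorsal arrays and 10.41, 10.21 and 10.42 on the ventral arrays, a difference of 5.62 ± 0.17. No dorsal array approached a ventral array. Nnat, the neuronatin gene, read 6.45, 5.76, 6.14, 7.04 and 6.05 on the dorsal arrays and 11.24, 10.48 and 10.90 on the ventral arrays (4.59 ± 0.29). Smaller differences were found for Usp29 (2.42 ± 0.28), Grb10 (2.16 ± 0.28), Nap1l5 (1.87 ± 0.16), Zdbf2 (1.82 ± 0.28), Peg3 (1.44 ± 0.12) and Ndn (1.41 ± 0.11). Without dorsal controls 4 and 5, 15 of the imprinted genes were higher and 1 lower, against 21.1% and 17.2% of all genes.

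Genes in no list also differed. Tmie, a gene of hair cell mechanotransduction, read 5.37 to 6.19 on the dorsal arrays and 9.53 to 9.71 on the ventral arrays (3.80 ± 0.17). Hap1, which encodes the huntingtin-associated protein of hypothalamic neurons, differed by 3.29 ± 0.32. AW551984 was undetected on the dorsal arrays and was at least 16.9-fold higher on the ventral arrays, where it read 9.07, 8.71 and 8.99.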
